A study of Mus musculus with 12 samples.

Results

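The keratins of surface epithelium were taken as every gene whose symbol in the platform annotation is Krt followed by a number, apart from the hair follicle keratins numbered Krt25 to Krt28, Krt31 to Krt40, Krt71 to Krt75 and Krt81 to Krt87. The rule gave 30 of the 16593 genes on the array, measured by 32 of its 25697 probes, and left out 17 hair keratin genes. Krt6a and Krt6b had 2 probes each and the others 1. RNA came from 12 mouse oral tumours grown for 21 days in first-generation FVB x C57BL/6 animals. Of these, 6 were labelled KHR and 6 KHR-NICD, and all 12 share whatever KHR stands for, which the labels do not spell out. NICD usually abbreviates the intracellular domain of Notch, the receptor fragment that acts in the nucleus. The labels name no promoter, inducing agent, age or site of transgene expression for either type, and they leave unsaid whether the 6 tumours of a type came from 6 animals. The p-values therefore speak for the spread among these 12 samples.

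Keratins are the intermediate filament proteins of epithelial cells. A filament is built from equal amounts of a type I and a type II keratin, and particular partners are made together as a cell moves up a stratified epithelium: Krt5 with Krt14 in the basal layer, Krt1 with Krt10 in the layers above it in skin, and Krt4 with Krt13 above it in the lining of the mouth and oesophagus. Krt6a, Krt6b, Krt16 and Krt17 are made in hair follicles and oral epithelium and come up in skin during wound repair and in squamous tumours, while Krt8, Krt18, Krt19 and Krt20 belong mainly to simple epithelia.

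A transcript from the Y chromosome, Eif2s3y, was found in 5 tumours, KHR tumours 4 to 6 together with KHR-NICD tumours 1 and 4, and in none of the other 7. Xist, the RNA made from a silenced X chromosome, split the tumours the same way, at 6.62 to 7.22 in those 7 and 4.58 to 5.11 in the 5 with Eif2s3y. The mean log2 intensity of 11 measured hair follicle keratins, of 14 on the array, ran from 7.18 to 9.23 in the 7 tumours without Eif2s3y and from 6.55 to 7.50 in the 5 with it. For 13 measured skeletal muscle genes, of 14 on the array, the ranges were 8.06 to 10.52 and 7.12 to 8.57. No marker of either list was undetected on all arrays. By tumour type the hair keratin mean ran from 6.55 to 9.23 in KHR and from 6.56 to 8.16 in KHR-NICD tumours, and the muscle mean from 7.12 to 10.52 and from 7.56 to 9.86. All 6 basal keratinocyte markers and all 8 cornifying keratinocyte markers on the array passed the detection filter. Of the markers on the array, 3 of 6 glandular, 7 of 8 fibroblast and 2 of 6 immune markers (S100a8 and S100a9) passed it. Cldn3 and Bpifa2 of the glandular list, Postn of the fibroblast list and Ptprc and Itgam of the immune list were detected on no array. In whole tumours, fewer cells of a type and less RNA per cell cannot be told apart.

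Of the 30 surface keratins, 22 passed the detection filter (detection p under 0.05 on at least 6 of 12 arrays) and entered the fit of KHR-NICD against KHR. None of the 22 was called by limma at an adjusted p under 0.05, where 17 of all 8420 genes (0.202%) were called, 8 higher and 9 lower in KHR-NICD. At an unadjusted p under 0.05 limma gave 3 of the 22, Krt12, Krt23 and Krt90, against 13.9% of all genes. No keratin had tumour types that did not overlap, a pattern found in 1.57% of all genes. The differences were 12 positive and 10 negative with a median of 0.02 on the log2 scale, and over all genes 4306 and 4114 with a median of 0.01. With arrays centred on their medians in place of quantile normalization the keratins split into 8 positive and 14 negative, and the calls over all genes into 5 higher and 49 lower.

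**Figure D1:**
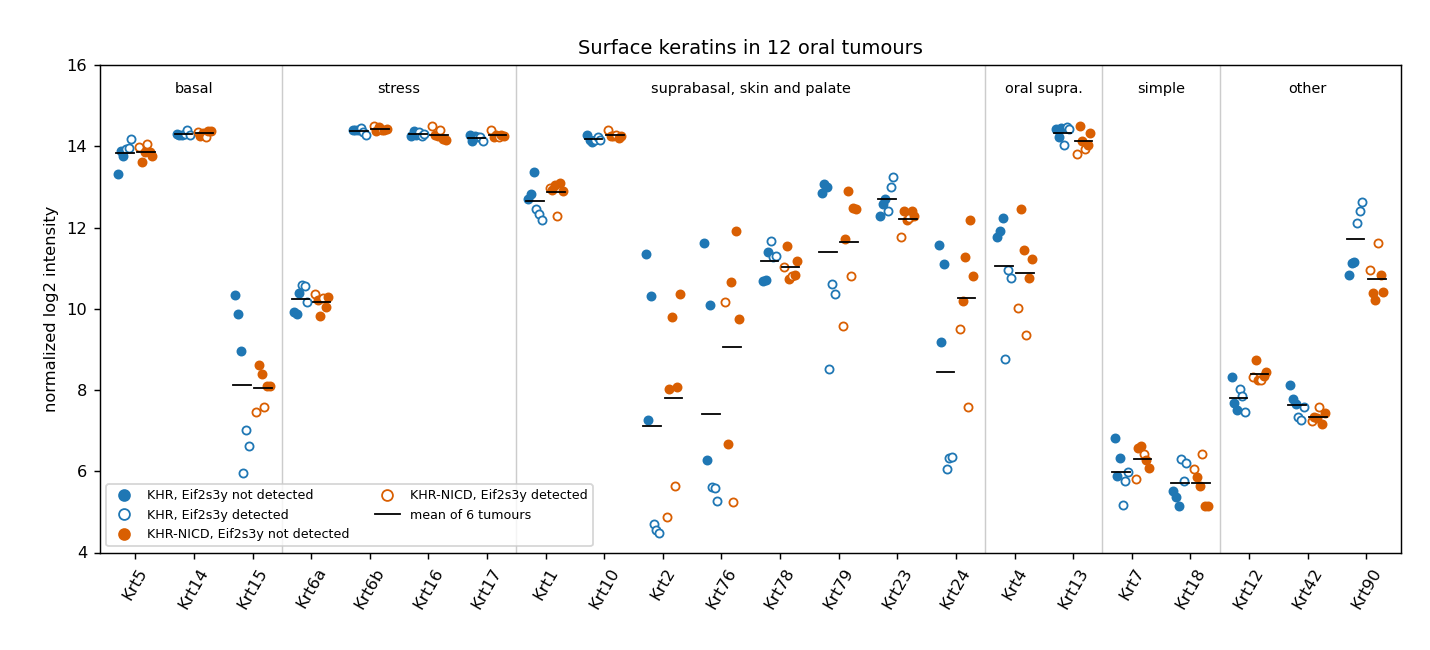
Normalized log2 intensity (vertical axis) of the 22 surface keratins that passed the detection filter, with a point for each of the 12 tumours and a bar at each mean of 6 tumours. Filled points are tumours without Eif2s3y and open points tumours with it. Krt6b, Krt14, Krt16, Krt17 and Krt10 lie in narrow bands, and Krt2, Krt76 and Krt24 spread from 4.49 to 11.35, 5.24 to 11.91 and 6.06 to 12.19, where the lowest values of Krt2 and Krt76 are not above background.

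The keratins fell into some that hardly varied and some that varied more than most transcripts. The within-type SD exceeded the 90th percentile of all genes (0.42 on the log2 scale) for 9 of the 22, and lay under the median of all genes for 6. The sequence before the transcription start is printed for the widest and the narrowest member of each type that has an entry, Krt2 and Krt5 for type II and Krt24 and Krt14 for type I. Krt5 is the narrowest type II member with an entry, yet its within-type SD of 0.23 under quantile normalization lay just above the median of all genes, 0.22. With arrays centred on their medians the SD of Krt5 was 0.17, under the median of all genes, 0.25. Each is the 250 bases upstream of the start in RefSeq's GRCm38.p6 table, on the minus strand and read 5′ to 3′, at chr15:101818170-101818419 for Krt2, chr15:101712906-101713155 for Krt5, chr11:99285263-99285512 for Krt24 and chr11:100206031-100206280 for Krt14. Capitals mark matches to a TATA box, searched as TATANAN, or to the core of RBPJ, the DNA-binding partner of the Notch intracellular domain, searched as TGGGAA.
Krt2: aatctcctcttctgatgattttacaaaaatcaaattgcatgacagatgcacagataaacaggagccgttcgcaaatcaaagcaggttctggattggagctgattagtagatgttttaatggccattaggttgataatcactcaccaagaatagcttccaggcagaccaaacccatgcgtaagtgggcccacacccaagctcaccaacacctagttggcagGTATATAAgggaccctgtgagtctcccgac
Krt5: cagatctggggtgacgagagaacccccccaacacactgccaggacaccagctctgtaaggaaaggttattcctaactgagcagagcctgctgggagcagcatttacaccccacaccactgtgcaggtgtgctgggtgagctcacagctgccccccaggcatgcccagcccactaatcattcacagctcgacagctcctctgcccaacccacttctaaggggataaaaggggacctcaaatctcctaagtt
Krt24: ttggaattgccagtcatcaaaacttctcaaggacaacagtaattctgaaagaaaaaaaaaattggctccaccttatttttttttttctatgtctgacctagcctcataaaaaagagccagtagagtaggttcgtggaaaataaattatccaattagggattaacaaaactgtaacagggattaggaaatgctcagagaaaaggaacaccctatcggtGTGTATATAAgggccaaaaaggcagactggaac
Krt14: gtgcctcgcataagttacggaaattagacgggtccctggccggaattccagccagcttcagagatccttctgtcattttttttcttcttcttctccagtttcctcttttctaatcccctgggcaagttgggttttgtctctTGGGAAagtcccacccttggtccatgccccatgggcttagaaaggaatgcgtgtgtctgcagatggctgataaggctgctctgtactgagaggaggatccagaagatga

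Krt2 carried 2 overlapping TATA box matches close to the start and Krt24 carried 3, and the Krt5 and Krt14 windows held none. Krt14 held 1 RBPJ core, and the other 3 sequences none. In all, 19 of the 30 surface keratins matched an entry, with 20 promoters between them. Of the 20 promoters, 7 held a TATA box match, 6 an RBPJ core and 2, both of 1 gene, the AP-1 motif TGANTCA. Matches were counted on both strands with overlapping matches included. The same windows of 32851 mouse promoters held these motifs in 22.5%, 21.6% and 6.75%. A match describes the letters of the window, not a bound site.

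Basal keratins were at closely matching levels in both tumour types, except that Krt15 varied from tumour to tumour. Krt5, the type II keratin of basal cells, had a lowest, median and highest log2 intensity of 13.31, 13.90 and 14.18 in KHR tumours and of 13.60, 13.85 and 14.05 in KHR-NICD tumours. The KHR-NICD values lay inside the KHR range. The difference was 0.01 with a standard error of 0.13 and a 95% interval of -0.27 to 0.29 (limma adjusted p = 0.981). Krt14, its type I partner, ran from 14.27 to 14.39 around a median of 14.28 in KHR and from 14.22 to 14.37 around 14.35 in KHR-NICD tumours, with an interval of -0.12 to 0.16 for the difference (limma adjusted p = 0.921). Krt15, a type I keratin of basal cells and of the hair follicle bulge, was at 10.34, 9.88 and 8.95 in KHR tumours 1, 2 and 3 and at 5.97, 7.02 and 6.63 in KHR tumours 4, 5 and 6. The 6 KHR-NICD tumours fell in the gap between them, from 7.46 to 8.61 with a median of 8.09. Means were 8.13 ± 1.83 and 8.04 ± 0.45 (SD, n = 6 each), a difference of -0.09 with an interval of -1.54 to 1.36 (limma adjusted p = 0.971).

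The keratins of wound repair and hyperproliferation overlapped between the tumour types. Under quantile normalization Krt6b, Krt16 and Krt17 varied little, while Krt6a, with a within-type SD of 0.26, varied more than the median gene. With arrays centred on their medians the SD of Krt6a was 0.21, under the median of all genes, 0.25. Krt6b ran from 14.28 to 14.45 (median 14.40) in KHR and from 14.37 to 14.50 (median 14.40) in KHR-NICD tumours, with an interval of -0.10 to 0.17 for the difference. Krt16, the type I keratin made with the Krt6 proteins, ran from 14.24 to 14.37 (median 14.29) and from 14.16 to 14.49 (median 14.25), with an interval of -0.17 to 0.15. Krt17, made in the same settings, ran from 14.13 to 14.28 (median 14.22) and from 14.22 to 14.39 (median 14.26), with an interval of -0.07 to 0.21. Krt6a, the near-identical neighbour of Krt6b, was at 9.87 to 10.59 (median 10.28) in KHR and 9.82 to 10.36 (median 10.23) in KHR-NICD tumours. Its difference was -0.08 with an interval of -0.39 to 0.23, and limma adjusted p-values of these 4 genes ran from 0.671 for Krt17 to 0.967 for Krt16. The second probes of Krt6a and Krt6b differed by -0.003 and 0.005 (limma adjusted p = 0.996 and 0.985 over all probes). How far a probe of Krt6a also binds Krt6b was not tested.

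The small spread of the brightest keratins depended on the scaling. Every array had the probes of Krt6b, Krt14, Krt16, Krt17, Krt10 and Krt13 among its 100 brightest, and quantile normalization forces that end of the range to the same values on every array. With arrays centred on their medians the within-type SD of Krt6b was 0.17 in place of 0.05, that of Krt14 was 0.15 in place of 0.06, and that of Krt17 was 0.18 in place of 0.06. For Krt13 it was 0.26 in place of 0.22. Which scaling lies nearer the true spread was not tested. None of the 6 keratins among the 100 brightest was called between the tumour types under either scaling. Differences between KHR-NICD and KHR changed sign with that scaling for Krt5, Krt6b, Krt14 and Krt17, and each stayed between -0.06 and 0.07. Raw signals of the Krt6b probe used ran from 19620 to 25350, and the highest signal of each array lay between 21249 and 27130. Whether the top of the measurable range narrowed these spreads was not tested.

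Among suprabasal keratins of skin and palate, Krt1 and Krt10 differed little between the types and Krt24 and Krt76 had wide, overlapping ranges. Krt1, the early suprabasal type II keratin, had a lowest, median and highest value of 12.18, 12.58 and 13.37 in KHR and of 12.29, 12.95 and 13.11 in KHR-NICD tumours, with an interval of -0.19 to 0.65 for the difference (limma adjusted p = 0.634). Krt10, its type I partner, ran from 14.10 to 14.27 (median 14.16) and from 14.19 to 14.40 (median 14.25), with a difference of 0.10 and an interval of -0.04 to 0.24 (limma adjusted p = 0.542).

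Krt24, a type I keratin of differentiating keratinocytes, had the largest positive difference of all 8420 genes, 1.82, and still did not pass. Its values were 11.58, 9.18, 11.11, 6.06, 6.33 and 6.35 in KHR tumours 1 to 6 and 9.51, 10.19, 11.27, 7.58, 12.19 and 10.79 in KHR-NICD tumours 1 to 6. KHR tumours 4, 5 and 6 were lower than every KHR-NICD tumour, and KHR tumours 1 and 3 were among the 4 highest of the 12. The standard error was 1.07 and the interval -0.48 to 4.12 (limma adjusted p = 0.469). The difference depended on what else was in the model. It was 1.23 with Eif2s3y detection (limma adjusted p = 0.191), 2.03 with the muscle level (limma adjusted p = 0.101) and 2.98 with the hair keratin level (limma adjusted p = 0.0328). Array weights gave 3.16 (limma adjusted p = 0.0971), and the 7 tumours without Eif2s3y alone gave 0.49 (limma adjusted p = 0.729).

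Krt76, a type II keratin of palate and tongue epithelium, and Krt2, the type II keratin of the upper epidermis, were low or undetected in some tumours of each type. Krt76 was at 11.63, 6.27, 10.09, 5.62, 5.58 and 5.26 in KHR tumours 1 to 6, the last of them not detected. In KHR-NICD tumours 1 to 6 it was at 10.17, 6.68, 10.67, 5.24, 11.91 and 9.74, and tumour 4 was not detected. The difference was 1.66 with an interval of -1.21 to 4.53 (limma adjusted p = 0.614). Krt2 was detected in 3 KHR tumours, at 11.35, 7.26 and 10.31, and in 5 KHR-NICD tumours, at 8.03, 9.80, 5.65, 8.07 and 10.36. It was not detected in KHR tumours 4, 5 and 6 and KHR-NICD tumour 1, and its difference of 0.68 had an interval of -2.22 to 3.58 (limma adjusted p = 0.868).

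Krt79, a type II keratin of the hair canal and infundibulum, ran from 8.53 to 13.08 (median 11.73) in KHR and from 9.57 to 12.90 (median 12.09) in KHR-NICD tumours, with a difference of 0.25 and an interval of -1.48 to 1.98 (limma adjusted p = 0.926). Krt78, a suprabasal type II keratin, ran from 10.69 to 11.68 (median 11.28) and from 10.74 to 11.55 (median 10.93), with a limma adjusted p of 0.761. Ranges of both genes overlapped almost entirely.

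Oral suprabasal keratins gave no call either. Krt4, the type II keratin of the oral and oesophageal lining, had a lowest, median and highest value of 8.76, 11.35 and 12.23 in KHR and of 9.36, 10.99 and 12.45 in KHR-NICD tumours, a difference of -0.19 with an interval of -1.47 to 1.10 (limma adjusted p = 0.926). Krt13, its type I partner, ran from 14.03 to 14.47 (median 14.43) in KHR and from 13.82 to 14.50 (median 14.09) in KHR-NICD tumours, a difference of -0.21 with an interval of -0.48 to 0.05 (limma adjusted p = 0.465). Krt4 ranged 12.9-fold over the 12 tumours and Krt13 1.60-fold.

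Krt12, Krt23 and Krt90 came nearest to a difference between the tumour types, and none passed over all genes. Krt12, the type I keratin of the cornea, was at 8.32, 7.68, 7.51, 8.01, 7.85 and 7.46 in KHR tumours 1 to 6 and at 8.32, 8.74, 8.25, 8.24, 8.34 and 8.44 in KHR-NICD tumours 1 to 6. KHR tumour 1 lay within the KHR-NICD range and the other 5 KHR tumours below all of it. The difference was 0.58 with a standard error of 0.14 and an interval of 0.27 to 0.89 (limma adjusted p = 0.112). Without KHR tumour 1, the KHR tumour within the KHR-NICD range, it was 0.68 (limma adjusted p = 0.0452). Leaving out any other KHR tumour gave no call, with limma adjusted p from 0.13 without tumour 4 to 0.233 without tumour 6.

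Krt90 was at 10.82, 11.12, 11.16, 12.12, 12.42 and 12.63 in KHR tumours 1 to 6 and at 10.96, 10.38, 10.22, 11.61, 10.84 and 10.42 in KHR-NICD tumours 1 to 6. KHR tumours 4, 5 and 6, all with Eif2s3y, were the highest of the 12. The difference was -0.97 (SE 0.33, limma adjusted p = 0.215). With Eif2s3y detection in the model it was -0.79 (SE 0.16, limma adjusted p = 0.0301), the single surface keratin called in that fit, where 2.57% of all genes were. Krt90 was also called with the hair keratin level in the model, at -1.33 (limma adjusted p = 0.00946), and with the muscle level, at -1.03 (limma adjusted p = 0.03).

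Krt23, a type I keratin, had a lowest, median and highest value of 12.29, 12.64 and 13.25 in KHR and of 11.77, 12.25 and 12.41 in KHR-NICD tumours. The 2 ranges overlapped between 12.29 and 12.41. Its difference was -0.50 with a standard error of 0.16 and an interval of -0.85 to -0.14 (limma adjusted p = 0.192). Krt42, a type I keratin of the nail, ran from 7.26 to 8.12 (median 7.62) in KHR and from 7.15 to 7.57 (median 7.32) in KHR-NICD tumours, a difference of -0.28 (limma adjusted p = 0.379).

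Keratins of simple epithelium were close to background or undetected. Krt7 ran from 5.16 to 6.82 (median 5.93) in KHR and from 5.81 to 6.63 (median 6.35) in KHR-NICD tumours (limma adjusted p = 0.587), and was not detected in KHR tumour 4. Krt18 ran from 5.14 to 6.29 (median 5.63) and from 5.14 to 6.42 (median 5.75), and limma gave an adjusted p of 0.999. Krt8, the usual partner of Krt18, was detected on 0 of 12 arrays, Krt19 on 2 (KHR tumours 5 and 6) and Krt20 on 1.

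The other keratins that did not pass the filter were Krt9, the type I keratin of palms and soles, Krt77 and Krt80, both type II, and Krt88 and Krt222. Krt9 and Krt88 were detected on 0 arrays, Krt77 on 1, Krt80 on 3 and Krt222 on 4. A probe under background has only an upper bound, so absence of the transcript was not shown.

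**Figure D2:**
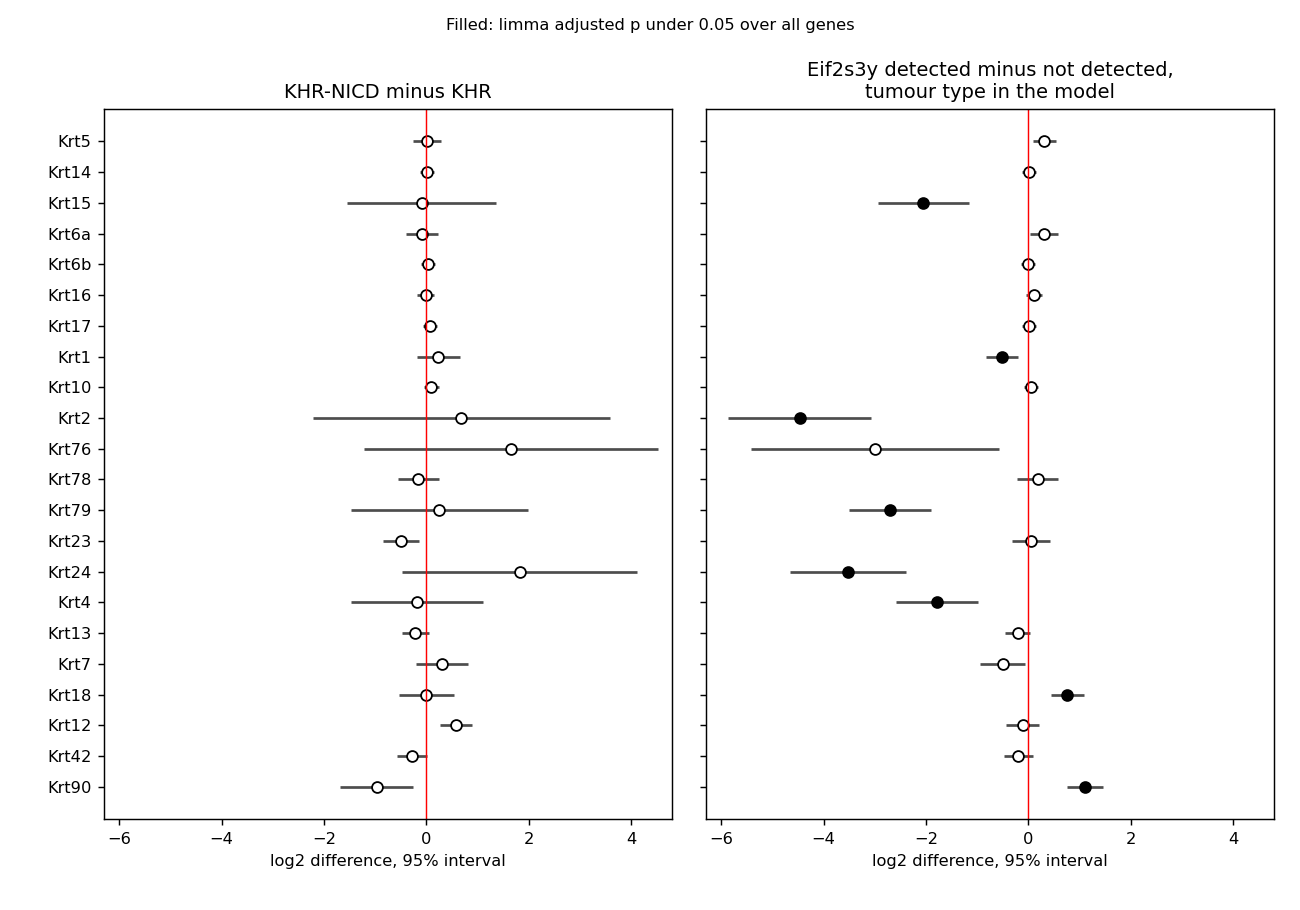
Log2 differences (horizontal axes) of the 22 surface keratins with 95% intervals, between KHR-NICD and KHR tumours on the left and between tumours with and without Eif2s3y on the right. Filled points have a limma adjusted p under 0.05 over all genes: none on the left, where the intervals are narrow for Krt14 (-0.12 to 0.16) and wide for Krt2 (-2.22 to 3.58), and 8 on the right.

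Because partners are made together, each type II keratin was set against its type I partner within each tumour, which asks whether the balance of a pair differed between KHR-NICD and KHR tumours. Of 9 pairs, 7 had both partners past the filter. The type I partner of each (Krt14, Krt10, Krt16, Krt17 or Krt13) lies among the brightest signals. Quantile normalization forces that end of the range to the same values, so a ratio follows mainly its type II keratin. Krt6b over Krt17 sets 2 such signals against each other. Krt5 over Krt14 differed by -0.01 (SE 0.14), Krt6b over Krt17 by -0.03 (SE 0.028) and Krt6a over Krt16 by -0.07 (SE 0.15). Krt4 over Krt13 differed by 0.03 (SE 0.59) and Krt1 over Krt10 by 0.13 (SE 0.23). The widest differences were 0.59 (SE 1.55) for Krt2 over Krt10 and 1.56 (SE 1.53) for Krt76 over Krt10. Exact two-sided permutation p-values over all splits of 6 against 6, which can go no lower than 0.00216, ran from 0.305 for Krt6b over Krt17 to 0.968 for Krt5 over Krt14, and adjusted over the 7 pairs from 0.955 to 0.968. No pair passed the test. With arrays centred on their medians none passed either, at an exact permutation p adjusted over the pairs of 0.95 for each. At this spread unequal changes of partners may go unseen.

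**Figure D3:**
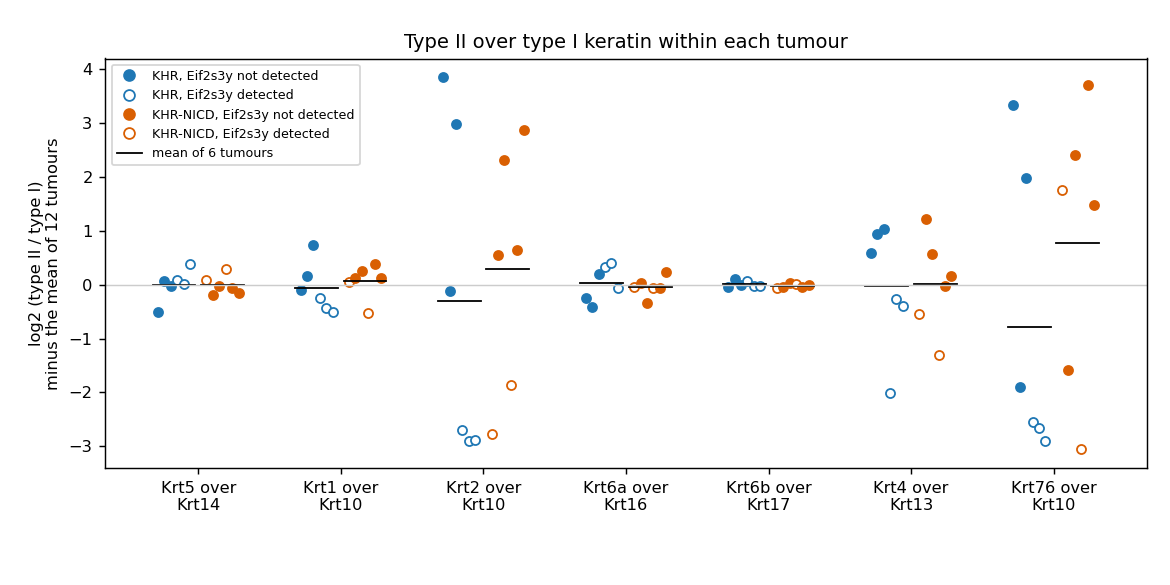
Log2 ratio of the type II to the type I keratin within each tumour, centred on the mean of the 12 tumours for each pair (vertical axis). Points are tumours, open where Eif2s3y was detected, and bars are means of 6. The pairs of Krt5, Krt6a and Krt6b lie close to 0, and tumours with Eif2s3y lie mostly below the others for Krt2, Krt76 and Krt4.

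Whether partners varied together was examined in the 7 tumours without Eif2s3y, since several keratins differed between tumours with and without it and 5 tumours are too few. These 7 are 3 KHR and 4 KHR-NICD tumours, and tumour type was not removed from the values. Krt4 and Krt13 had a Pearson r of 0.81 (exact permutation p = 0.0284, adjusted over 7 pairs 0.199) and a Spearman rho of 0.82 (exact permutation p = 0.0341, adjusted 0.239). Without the 2 tumours farthest from the median of Krt4 the r was 0.48. Krt1 and Krt10 had an r of -0.64 (exact permutation p = 0.125, adjusted 0.438), which was 0.24 without the 2 farthest. The other 5 pairs had r between -0.34 and 0.30, and no pair passed after adjustment. Krt6b and Krt17 had an r of 0.17 that became 0.96 with arrays centred on their medians, and the cause of that change was not tested.

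Several surface keratins were called between tumours with and without Eif2s3y. With tumour type in the model, limma called 8 of 22 (36.4%), where 18.6% of all genes were called. Of these, 6 were lower with Eif2s3y, where 10.1% of all genes were, and 2 were higher, where 8.47% were. Hair keratins and muscle genes moved with the same split: 9 of 11 and 12 of 13 measured genes were called lower, with median coefficients of -2.08 and -1.91. Of 6 measured basal keratinocyte markers, 3 were called higher (Itgb4, Lamb3 and Cdh3) and 0 lower, with a median of 0.22. Of 8 cornifying keratinocyte markers, 1 was called higher and 2 lower. The part of these markers in the keratin values was not tested. With the hair keratin level added to the model 0 of the 22 keratins were called by limma, 5 had an unadjusted p under 0.05, and 0.0119% of all genes were called. With the muscle level added these were 0, 7 and 0.19%. The split, the hair keratin level and the muscle level overlap so far in these 12 tumours that their parts cannot be told apart.

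**Figure D4:**
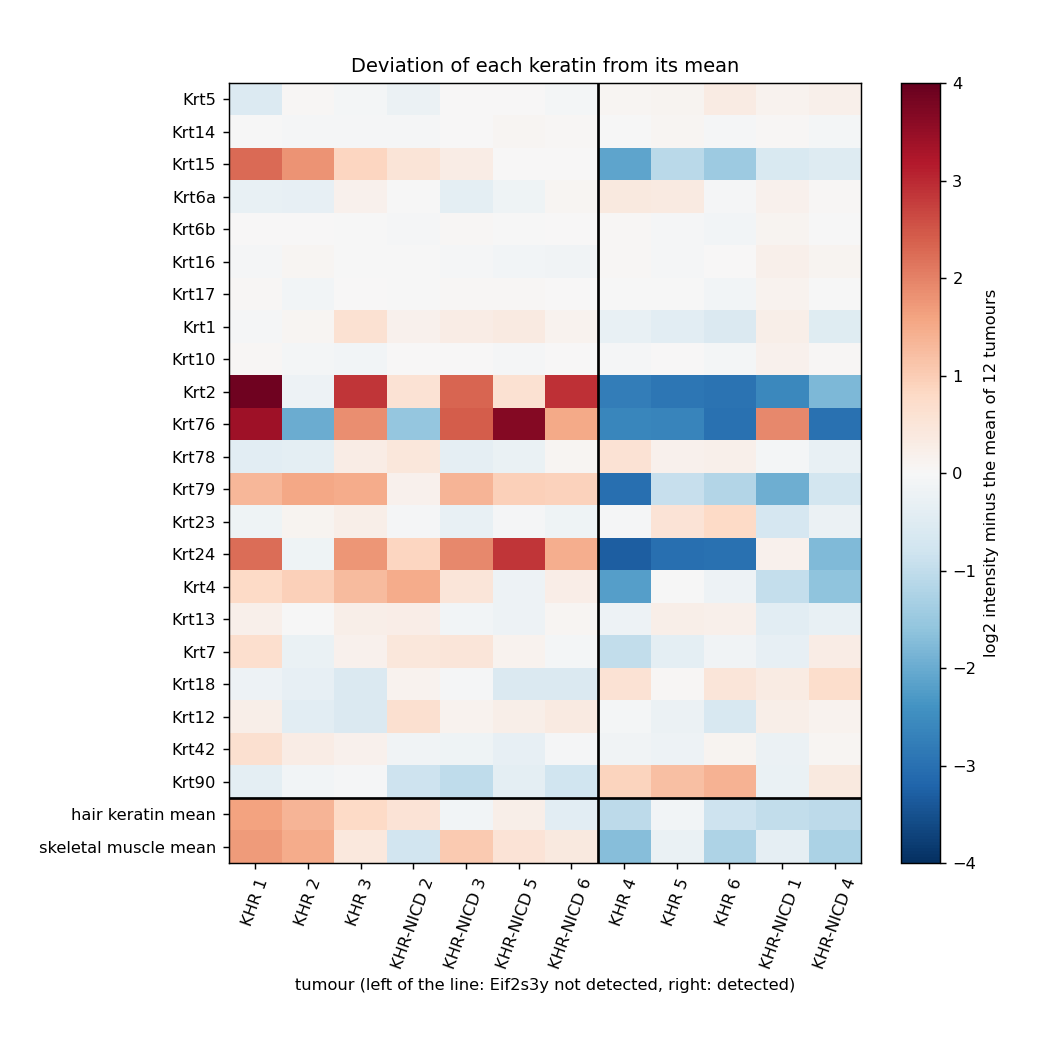
Deviation of each keratin's log2 intensity from its mean over 12 tumours (colour, from -4 to 4), with the tumours without Eif2s3y left of the line and those with it right. The lowest rows give the means of hair keratins and skeletal muscle genes. Krt2, Krt24, Krt79, Krt15 and Krt4 are on average lower right of the line, as are both marker means, and Krt90 is on average higher.

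Krt2 had the largest negative coefficient among the called keratins, set against a signal that was above background in only 1 of the 5 tumours with Eif2s3y, KHR-NICD tumour 4. It was at 4.70, 4.56, 4.49, 4.87 and 5.65 in the 5 tumours with it and had a lowest, median and highest value of 7.26, 9.80 and 11.35 in the 7 without. The sets did not overlap, which held for 4 of the 22 keratins (Krt2, Krt5, Krt15 and Krt79) and for 6.38% of all genes. The coefficient was -4.47 (SE 0.64, limma adjusted p = 0.00131), and no fold is given because most of the lower values are background. It was -5.06 within KHR and -3.81 within KHR-NICD tumours, and -5.02 with the hair keratin level in the model (limma adjusted p = 0.154).

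Krt24 followed, at 6.06, 6.33, 6.35, 9.51 and 7.58 in the 5 tumours with Eif2s3y and at 9.18, 11.11 and 12.19 (lowest, median, highest) in the 7 without. KHR-NICD tumour 1 lay above the lowest tumour of the other set. The coefficient was -3.52 with a standard error of 0.52, or 11.5-fold (limma adjusted p = 0.00144), and -2.65 with the hair keratin level in the model (limma adjusted p = 0.281). Krt79 was at 8.53, 10.61, 10.37, 9.57 and 10.80 with Eif2s3y and at 11.71, 12.85 and 13.08 without, with no overlap and a coefficient of -2.70 (SE 0.37, 6.50-fold, limma adjusted p = 0.000947). With the hair keratin level in the model its coefficient was -1.97 (limma adjusted p = 0.253).

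Krt15 was at 5.97, 7.02, 6.63, 7.46 and 7.58 in the tumours with Eif2s3y and at 8.09, 8.61 and 10.34 without, and the sets did not overlap. Its coefficient of -2.05 (SE 0.41, limma adjusted p = 0.00573) became 0.13 with the hair keratin level in the model (limma adjusted p = 0.924). Krt15 differed between KHR-NICD and KHR by -1.43 in the 7 tumours without Eif2s3y and by 0.98 in the 5 with it. The interaction of 2.41 had an unadjusted p of 0.000324 and did not pass over all genes (limma adjusted p = 0.0606). None of the 22 keratins had a called interaction, where 0.285% of all genes did, and at an unadjusted p under 0.05 limma gave 3 (Krt15, Krt23 and Krt42) where 17.9% of all genes did.

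Krt4 was at 8.76, 10.95, 10.77, 10.02 and 9.36 with Eif2s3y and at 10.76, 11.75 and 12.45 without, with KHR tumours 5 and 6 reaching the lower end of the other set. Its coefficient was -1.79 (SE 0.37, 3.46-fold, limma adjusted p = 0.00676), and -0.81 with the hair keratin level in the model (limma adjusted p = 0.618). Its partner Krt13 gave -0.21 (limma adjusted p = 0.218), and -0.25 with arrays centred on their medians (limma adjusted p = 0.234). The signals of Krt13 lie among the brightest, but its within-type SD changed little with the scaling, from 0.22 to 0.26 with arrays centred on their medians. Why Krt13 differed less than Krt4 was not tested. Krt1 ran from 12.18 to 12.98 with Eif2s3y and from 12.70 to 13.37 without. Its coefficient was -0.51 (SE 0.14, limma adjusted p = 0.0263), and -0.61 with the hair keratin level in the model (limma adjusted p = 0.362). The call of Krt1 was also lost without KHR tumour 5, KHR tumour 6 or KHR-NICD tumour 4. The other 7 called keratins stayed called without any single tumour.

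Krt90 and Krt18 rose. Krt90 was at 12.12, 12.42, 12.63, 10.96 and 11.61 with Eif2s3y and at 10.22, 10.82 and 11.16 without, with KHR-NICD tumour 1 inside the other set's range. Its coefficient was 1.10 (SE 0.16, 2.15-fold, limma adjusted p = 0.00141), and 0.88 with the hair keratin level in the model (limma adjusted p = 0.255). Krt18, near background, ran from 5.76 to 6.42 with Eif2s3y and from 5.14 to 5.86 without, a coefficient of 0.76 (SE 0.15, limma adjusted p = 0.00544). It was not detected in KHR tumour 3 and KHR-NICD tumours 5 and 6, all without Eif2s3y, so part of the lower side is background. With the hair keratin level in the model its coefficient was 0.89 (limma adjusted p = 0.23).

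Of the other 14, Krt76 had the widest coefficient, -3.00 (limma adjusted p = 0.0799), with KHR-NICD tumour 1 at 10.17 and the other 4 tumours with Eif2s3y at 5.62 or below. It was called without KHR tumour 2, KHR-NICD tumour 1 or KHR-NICD tumour 2. Krt5 was at 13.92 to 14.18 in the 5 tumours with Eif2s3y and at 13.31 to 13.88 in the 7 without, a difference of 0.31 (limma adjusted p = 0.0558). It was called with an offset of 50 or without KHR tumour 2. Krt7 gave -0.50 (limma adjusted p = 0.102) and was called with arrays centred on their medians. Krt14, Krt6b, Krt17 and Krt10 had coefficients from -0.00 to 0.06.

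Genes that anchor, modify or regulate keratin filaments were counted in the same fit. Of 40 listed, 35 were on the array, without Dsp, Evpl, Stub1, Flg and Tchh, and 31 passed the filter. Between KHR-NICD and KHR tumours limma called 0 of the 31, where 0.202% of all genes were called. Their differences were 9 positive and 22 negative with a median of -0.10. The smallest p-values belonged to Pkp2, a desmosomal plaque protein, at -0.61 (limma adjusted p = 0.0836), Dsg3, the desmosomal cadherin of lower layers, at -0.68 (limma adjusted p = 0.112), Grhl3, a transcription factor of barrier formation, at -0.46 (limma adjusted p = 0.154), and Hspb1, a small heat shock protein, at -0.36 (limma adjusted p = 0.228). Between the tumours with and without Eif2s3y limma called 7 of the 31 higher and 2 lower, where 8.47% and 10.1% of all genes were called.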

How the data were processed

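Each of 12 tumours was profiled on its own Illumina MouseRef-8 v2 array, a bead array read in 1 colour. The authors deposited a table of unnormalized signal intensity with a detection p-value for each probe, per the file headers, and a second table of processed intensity that was used as an alternative. GenomeStudio and Partek are the tools given, per the submitters' processing notes, and the genome build is not given in the sources used here.

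Intensities were corrected and quantile-normalized with neqc (offset 16, background inferred from detection p) of limma 3.58.1 in R 4.3.3, on the log2 scale. A probe was kept at a detection p under 0.05 on at least 6 arrays, which left 11721 probes. The brightest of a gene's probes by mean was used, giving 8420 genes. Platform symbols were checked through the Entrez identifier and no member's symbol changed. Differences were fitted with lmFit and eBayes of limma and adjusted by Benjamini-Hochberg at 0.05 over all genes. Detected probes made up 43.6% to 48.1% of each array, with median signals of 140 to 178 and 33.0 to 37.4 beads per probe on average. The number of arrays limits the precision. On simulated data of this comparison (8420 genes, 200 changed) the fit recovered 45.4% of changes of 0.5, 88.8% of 1 and 95.9% of 1.5 on the log2 scale. The changed genes were drawn from all genes, whose median within-type SD was 0.22, against 0.33 for the 22 surface keratins. Recovery was not simulated for the keratins, so these rates do not describe them.

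The members, the gene lists and the pairs were chosen with earlier results of these data known. Every member is named, those past the filter with values, and from the list of filament partners the 4 of smallest p. The split by Eif2s3y detection, and the fits with the hair keratin and muscle levels, were chosen after seeing the data. Pair correlations had been planned over all 12 tumours and are given for 7, because several keratins differed with Eif2s3y.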

Additional observations from a re-analysis of the deposited data

Results flagged for a closer look

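In 58 sets of 6 tumours the highest or lowest value was checked for a gap to the others that is wide against the whole range. Chance gives about 1 such gap in 20 independent sets, and 5 were found in these 58. The sets are not independent, since a pair ratio contains its keratins, and the count was not tested against chance. Krt1 was low in KHR-NICD tumour 4, at 12.29 on the log2 scale against 12.91 to 13.11 in the other 5, and in the same tumour the log2 ratio of Krt1 to Krt10 was -2.00 against -1.42 to -1.09. Krt14 was high in KHR tumour 5, at 14.39 against 14.27 to 14.31. Krt17 was high in KHR-NICD tumour 1, at 14.39 against 14.22 to 14.27. Krt23 was low in the same tumour, at 11.77 against 12.18 to 12.41. Krt14 and Krt17 lie among the brightest signals, where the spread depended on the scaling.

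Krt15 moved in opposite directions with tumour type: all 4 KHR-NICD tumours without Eif2s3y lay below the 3 KHR tumours without it, and both KHR-NICD tumours with Eif2s3y lay above the 3 KHR tumours with it. The difference between these 2 effects was 2.41 on the log2 scale and did not pass over all genes (limma adjusted p = 0.0606).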

How the results depend on the processing

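The 17 calls over all genes became 54 with arrays centred on their medians, 125 with array weights, 216 with Eif2s3y detection in the model, 199 with the hair keratin level, 108 with the muscle level, 1 in the tumours without Eif2s3y alone, and 0 in those with it alone, where limma gave 2144 genes at an unadjusted p under 0.05. Leaving out each tumour in turn gave 1 to 24. The replicate block gave 1. The labels do not say whether replicate numbers pair the samples, and same-numbered tumours had deviations correlated from -0.22 to 0.45. The replicate block called no surface keratin. The count of called surface keratins, 0, became 2 with array weights (Krt12 and Krt90), 1 with Eif2s3y detection in the model, 3 with the hair keratin level (Krt12, Krt24 and Krt90), 1 with the muscle level, and 0 to 1 leaving out each tumour. The 8 calls by Eif2s3y became 0 with the hair keratin level, 0 with the muscle level, and 7 to 10 leaving out each tumour. The count of pair correlations past adjustment, 0, became 1 with median centring. Over single keratins and pairs, 684 values under 25 settings gave 611 of like direction and call, 65 that changed sign without being called and 8 that became called. None could lose a call, since none was called in the main fit. Values of like direction could still differ in size, as for Krt24, at 1.82 in the main fit and 0.49 in the tumours without Eif2s3y alone. Array weights and added levels were not run for pairs, nor were pairs within the tumours with Eif2s3y, where 3 against 2 cannot reach a p under 0.05. Causes of these changes were not tested.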

Other observations

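In the filament partner list, the 2 genes called lower in tumours with Eif2s3y were Flg2 (coefficient -2.27) and Hrnr (-0.61), and the 7 called higher were Pitx1 (0.77), Sfn (0.62), Vim (0.62), Tgm3 (0.61), Klf5 (0.52), Dsg3 (0.43) and Tgm1 (0.32), all named here after their values were seen. Flg2 and Hrnr are filaggrin-like proteins, and Tgm1 and Tgm3 cross-link the cornified envelope. The muscle level in the model left coefficients of -3.87 for Krt2 (limma adjusted p = 0.114) and -2.33 for Krt24 (limma adjusted p = 0.167). Among keratins that did not pass the detection filter, Krt19 reached 6.28 in a KHR tumour and Krt77 reached 6.16 in KHR tumour 2.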
